A study of Mus musculus with 20 samples.

Results

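The genes described here are the cytochrome P450 genes, measured in thymic medullary epithelium of mice with intact Aire (wild-type, WT) or with the Aire knockout (KO). Members were the probe sets whose only gene symbol is Cyp followed by a digit, and a gene with several such probe sets was represented by the 1 with the highest mean log2 intensity over all arrays. The rule gave 73 genes out of 18193 with a single-symbol probe set. They came from 98 probe sets and fall into 16 families, of which family 2 was the largest with 35 genes, followed by family 4 with 13 and family 3 with 5. The rule used no difference between groups.

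P450 enzymes are haem proteins that insert oxygen into small molecules, using electrons passed on by a reductase in the endoplasmic reticulum or by ferredoxin in mitochondria. Families 1 to 3 are known mainly for clearing drugs, toxins and hormones in liver, lung and gut, family 4 for oxidising fatty acids and eicosanoids, and the other families for making or breaking down steroids, bile acids, vitamin D and retinoic acid. Aire, a nuclear protein of medullary thymic epithelium, is known for turning on genes of peripheral tissues so that developing T cells meet their products. Several human P450 enzymes, among them those of steroid synthesis and the liver enzyme CYP1A2, are known targets of autoantibodies in people who lack AIRE.

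Affymetrix arrays were hybridised with RNA from single thymi of male mice aged 3 to 4.5 weeks, in 6 groups: Aire WT and Aire KO mice on B6 (3 and 3), BALB (4 and 4) and NOD (3 and 3) backgrounds, 20 arrays in all. Thymi were dissociated with collagenase, dispase and DNAse, and cells were sorted as CD45-, G8.8+, MHC class II high and Ly51 intermediate. The title asks what Aire does in mice of different backgrounds. The sources used here do not say how the Aire allele was made, how far it was backcrossed, or which sub-strain was used. The labels name no tissue restriction of the knockout. Fewer cells of a type cannot be told apart from less RNA per cell in such bulk samples.

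Array medians lay between 86.3 and 90.9 intensity units, values that normalization can bring together, so they are no check of the arrays. The epithelial marker Epcam read 11.05 to 12.53 on the log2 scale and the MHC class II gene H2-Aa 13.11 to 14.14, while the haematopoietic marker Ptprc, which encodes CD45, was not absent and read 7.97 to 11.08. Of 14 medullary epithelium markers 2 were called lower in KO mice averaged over the strains, Krt5 (-0.69) and Krt14 (-0.44). Called higher were 3, Cd80 (0.85), H2-Ab1 (0.22) and Aire, and 9 did not pass. Over all genes 16.6% were called lower and 9.7% higher. The Aire probe set was higher in the KO mice (11.53, 10.95 and 11.91 in B6, BALB and NOD) than in the WT mice (10.73, 10.25 and 11.19), and its place relative to the deleted part is not given, so it checks nothing and KO means labelled KO. The 3' probe set of Gapdh exceeded its 5' probe set least in B6 WT 2, KO 2 and KO 3, by 1.68 to 1.90. The other arrays read 2.15 to 3.76 log2 units, with B6 WT 1 highest (3.76), followed by BALB WT 4 (3.04). B6 KO 2 and KO 3 were also the most alike pair of arrays (Pearson r 0.996 across probe sets). Counts, calls or differences that rest on B6 are therefore also given without the 3 low arrays where that changes them. Below, the 3 B6 arrays that stood apart means these. B6 then keeps WT 1, WT 3 and KO 1, so the array with the highest Gapdh difference stays in. With 1 B6 KO mouse left, a lost call may reflect fewer mice.

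Stretches around the start sites of 3 genes are shown because these genes carry the main results, namely the family 1 neighbours Cyp1a2 and Cyp1a1, which fell together in KO mice, and Cyp26a1, which rose. Each runs from 100 bases before to 20 bases after the annotated start, 5′ to 3′ on the gene's own strand, from RefSeq (GRCm38.p6). Capitals mark the letters TATAAA (the TATA box), GCGTG (the core bound by the dioxin receptor Ahr with Arnt) and a direct repeat of AGTTCA with a spacer of 5 bases (a retinoic acid response element), searched on both strands. Cyp1a2 lies at chr9:57683636-57683755 (minus strand), Cyp1a1 at chr9:57697513-57697632 (plus strand) and Cyp26a1 at chr19:37697708-37697827 (plus strand).
Cyp1a2: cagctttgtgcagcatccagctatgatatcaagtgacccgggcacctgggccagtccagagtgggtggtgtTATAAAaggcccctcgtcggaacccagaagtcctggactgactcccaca
Cyp1a1: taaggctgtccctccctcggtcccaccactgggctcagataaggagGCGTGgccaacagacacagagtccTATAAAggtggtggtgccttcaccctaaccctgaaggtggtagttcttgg
Cyp26a1: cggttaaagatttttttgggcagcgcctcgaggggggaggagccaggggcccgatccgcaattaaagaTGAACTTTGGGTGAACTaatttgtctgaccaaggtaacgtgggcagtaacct

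The starts of Cyp1a2 and Cyp1a1 lie 13957 bases apart and the genes point away from each other. TATAAA begins 29 bases before the Cyp1a2 start and 30 bases before that of Cyp1a1, and GCGTG begins 54 bases before the Cyp1a1 start. The Cyp26a1 stretch reads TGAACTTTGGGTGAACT, the retinoic acid element on the other strand, from 32 bases before the start. The promoter table listed 52 of the 73 members, with windows from 250 bases before to 50 bases after the start. That element was found in 1 of them, Cyp26a1, and in 0.0296% of all 27025 genes in the table. Only the exact letters AGTTCA were searched as its repeat, so other forms of the element were not counted and the count is no test. TATAAA was found in the windows of 21 of 52 members against 15.7% of all genes in the table, namely in 10 of the 22 listed members that fell in KO mice and 11 of the 30 others. GCGTG was found in 14 of 52 members against 35.2% of all genes, in 6 of 22 that fell and 8 of 30 others. A match describes letters and not a bound site.

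Most P450 genes gave signals in the lower part of the array's range. The median of the 73 mean levels was 6.32 on the log2 scale against 7.28 over all genes, and 42 members lay at or below 6.48, the median of all values. No detection calls came with the values, so no member is called undetected. The highest mean levels, which compare probe sets and not transcript numbers, were those of Cyp26a1 (10.35), the retinoic acid hydroxylase, and Cyp4v3 (10.02), a fatty acid hydroxylase. Next came Cyp2g1 of the olfactory lining (9.89), Cyp51 of cholesterol synthesis (9.40), Cyp20a1, an enzyme without a settled substrate (8.84), and the adrenal steroid hydroxylase gene Cyp21a1 (8.51). The lowest were Cyp3a16 (3.60), the vitamin D hydroxylase gene Cyp2r1 (3.63), the pseudogene Cyp4f41-ps (4.08) and Cyp2d10 (4.17).

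Across the 3 strains, 27 of the 73 P450 genes were lower in KO than in WT mice and 2 were higher (limma, Benjamini-Hochberg adjusted p under 0.05 for the average of the 3 strain differences). Over all 18193 genes 16.6% were called lower and 9.7% higher by the same rule. These shares also apply to the family, subfamily, partner and marker counts of the averaged effect below. The remaining 44 members did not pass. The median difference of the members was -0.18 on the log2 scale against 0.01 for all genes, and 47 of 73 members were below 0 against 47.9% of all genes. Falls were present at both ends of the signal range, in 13 of 31 members above the median of all values (16.5% of all such genes) and in 14 of 42 at or below it (16.8%). Without the 3 B6 arrays that stood apart, 24 members were lower and 2 higher. The calls of Cyp2b19, Cyp3a16, Cyp4v3 and Cyp51 were lost and that of Cyp3a25 was gained.

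A fall of at least 2-fold was met by 5 members, against 3.57% of all genes, and no member rose that far, against 0.599%. These 5 were Cyp1a2, Cyp2f2, Cyp4f14, Cyp3a11 and Cyp4a12a, enzymes of liver, lung and kidney. In 16 members 9 or 10 of the 10 KO mice lay below every WT mouse of their strain (8.48% of all genes). In 9 of these all 10 did so (5.56% of all genes): Cyp1a2, Cyp1a1, Cyp2f2, Cyp4f14, Cyp4a14, Cyp3a44, Cyp2d10, Cyp11b1 and the arachidonic acid epoxygenase gene Cyp2c23. Just inside the threshold stood Cyp51 (adjusted p = 0.049) and just outside it Cyp2c68 (adjusted p = 0.05, above the threshold before rounding).

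**Figure D1:**
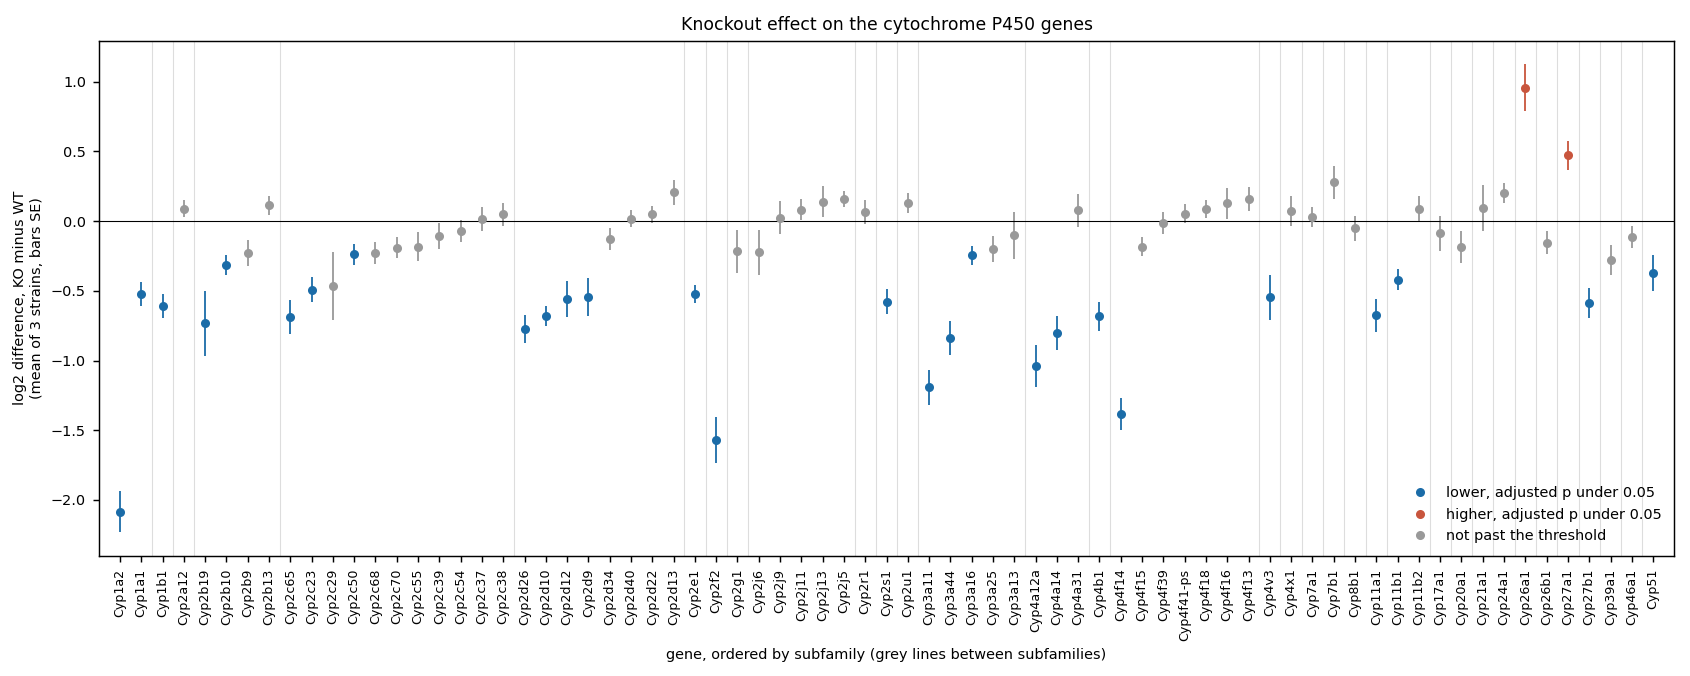
Difference between KO and WT mice, averaged over the 3 strains, for each of the 73 P450 genes ordered by subfamily. Points are log2 differences (vertical axis), bars are SE from the limma fit over 20 arrays, and colour marks an adjusted p under 0.05. The 27 genes called lower include all 3 of family 1, none of the 5 Cyp2j genes is called, and Cyp26a1 (0.96) and Cyp27a1 (0.47) are the 2 called higher.

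Family 1, whose enzymes oxidise planar aromatic compounds and oestrogens and are known targets of the dioxin receptor, was lower in all 3 of its measured genes. Cyp1a2, the caffeine-oxidising enzyme of the liver, showed the largest averaged fall of the 73 members. In B6 mice Cyp1a2 (probe set 1450715_at) read 7.42, 7.79 and 7.64 in WT and 5.49, 5.50 and 5.75 in KO on the log2 scale. In BALB mice Cyp1a2 read 8.14, 8.32, 7.61 and 6.82 in WT and 5.61, 5.63, 5.52 and 5.46 in KO. In NOD mice Cyp1a2 read 7.46, 7.37 and 7.91 in WT and 5.27, 5.73 and 5.57 in KO. No KO mouse of any strain reached the lowest WT mouse, BALB WT 4, and the KO mice of all strains lay within a narrow band. The averaged difference was -2.09 ± 0.15 (SE), a 4.25-fold fall (limma, adjusted p = 8.63e-09). B6 showed -2.03 ± 0.27, BALB -2.16 ± 0.23 and NOD -2.06 ± 0.27, and the test of a difference between them did not pass (adjusted p = 1 after rounding).

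Cyp1a1, its neighbour on chromosome 9, moved less, by -0.52 ± 0.09 (SE) or 1.43-fold (adjusted p = 0.000226). B6 mice read 7.06, 6.94 and 6.86 in WT and 6.62, 6.63 and 6.45 in KO for Cyp1a1. BALB mice read 7.29, 6.90, 6.46 and 6.75 in WT and 6.45, 6.16, 6.46 and 6.40 in KO. NOD mice read 6.94, 6.91 and 7.20 in WT and 6.35, 6.37 and 6.26 in KO. The groups did not overlap within a strain, though BALB WT 3 came within the rounding of the highest BALB KO mouse. Cyp1b1, an oestrogen hydroxylase of tissues outside the liver, fell by 0.61 on the log2 scale (SE 0.08, adjusted p = 3.75e-05). Its strain differences were -0.98 ± 0.15 in B6 and -0.58 ± 0.13 in BALB, both past the threshold, and -0.28 ± 0.15 in NOD, which did not pass (adjusted p = 0.491). A test of that spread between strains did not pass (adjusted p = 0.606). Without the 3 B6 arrays, which leaves 1 B6 KO mouse, B6 read -0.92. Of its other probe sets 1 also fell (-0.45) and the other read 0.17 and did not pass.

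The regulators of family 1 gave different results. Ahr, the dioxin receptor, and its partner Arnt read -0.29 and -0.14 and did not pass. Ahrr, the repressor that Ahr itself is known to switch on, fell by 0.60 on the log2 scale (SE 0.15, adjusted p = 0.00697).

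Family 2, with enzymes for drugs, odorants and arachidonic acid, had 12 of 35 measured genes lower and none higher. The largest of its falls was that of Cyp2f2, the naphthalene-activating enzyme of lung club cells. In B6 mice Cyp2f2 (probe set 1448792_a_at) read 8.74, 8.78 and 9.41 in WT and 6.89, 7.24 and 6.82 in KO. In BALB mice Cyp2f2 read 9.33, 9.38, 9.37 and 10.16 in WT and 8.31, 8.37, 7.89 and 8.69 in KO. In NOD mice Cyp2f2 read 6.20, 7.13 and 7.39 in WT and 5.23, 5.23 and 5.85 in KO. Genotypes did not overlap within any strain, but the KO mice of BALB lay above the WT mice of NOD. The averaged fall was -1.57 ± 0.16 (SE), or 2.97-fold (adjusted p = 1.36e-06), and the adjusted p passed in each strain alone (0.000197 in B6, 0.00501 in BALB and 0.00556 in NOD).

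The Cyp2d subfamily, whose human member CYP2D6 metabolises many drugs and is the liver antigen of an autoimmune hepatitis, had 4 of 8 genes lower. Cyp2d26 fell by 0.77 on the log2 scale (SE 0.10, adjusted p = 1.55e-05) and Cyp2d10 by 0.68 (SE 0.07, adjusted p = 1.80e-06). Cyp2d12 and Cyp2d9 fell by 0.56 and 0.55. The remaining members Cyp2d34 (-0.13), Cyp2d40 (0.02), Cyp2d22 (0.05) and Cyp2d13 (0.21) did not pass. With same-numbered BALB and NOD mice as pairs, Cyp2d13 was called higher (adjusted p = 0.0263 in place of 0.121). Cyp2d10 was called lower in each of the 3 strains (-0.94, -0.52 and -0.59 in B6, BALB and NOD). These genes have similar sequences, so a probe set may also read transcripts of a relative.

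The Cyp2c subfamily, arachidonic acid and drug oxidases, had 3 of 11 genes lower, with the largest fall in Cyp2c65, an intestinal member, by 0.69 on the log2 scale (SE 0.12, adjusted p = 0.000483). At its other end stood Cyp2c38 (0.05), which did not pass. In the Cyp2b subfamily 2 of 4 genes were lower. Cyp2b19, an arachidonic acid epoxygenase of skin keratinocytes, fell by 0.73 (SE 0.23, adjusted p = 0.0331), and its call was lost without the 3 B6 arrays (-0.80, adjusted p = 0.0895), with the dendritic cell and macrophage markers as a covariate (0.0656), with 32 added before the logarithm (0.0558) or without any 1 of 9 mice. These mice were B6 WT 3, KO 1 and KO 3, BALB WT 3, KO 1 and KO 2, and NOD WT 2, KO 1 and KO 2. Cyp2b13 (0.11) did not pass. For Cyp2b10, a drug-inducible liver enzyme, the probe set used fell by 0.31 and a pair of dimmer probe sets by 1.08 and 0.78. None of the 5 Cyp2j genes, epoxygenases of heart and kidney, passed, with differences from -0.22 for Cyp2j6 to 0.16 for Cyp2j5.

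Among the single-gene subfamilies of family 2, Cyp2e1, the ethanol-oxidising enzyme of the liver, fell by 0.52 (SE 0.06, adjusted p = 8.41e-06). Cyp2s1, an epithelial enzyme, fell by 0.58 (SE 0.09, adjusted p = 0.000122). Cyp2g1 (-0.22) and Cyp2a12 (0.09), a steroid hydroxylase of mouse liver, did not pass.

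The Cyp3a subfamily, the main drug- and steroid-clearing enzymes of liver and gut, had 3 of 5 genes lower. Cyp3a11, its principal liver gene, fell by 1.19 averaged over the strains (SE 0.13, adjusted p = 1.76e-06), a mean that covers unlike strain values. In B6 mice Cyp3a11 (probe set 1416809_at) read 8.18, 8.65 and 8.34 in WT and 6.79, 6.39 and 6.48 in KO. In NOD mice Cyp3a11 read 8.50, 7.83 and 7.97 in WT and 6.31, 6.23 and 6.43 in KO. In BALB mice Cyp3a11 read 8.12, 8.48, 7.46 and 7.73 in WT and 7.72, 7.80, 8.29 and 8.12 in KO. Every B6 and NOD KO mouse lay more than 1 log2 unit below the WT mice of its strain, whereas the BALB genotypes overlapped throughout. The difference in B6 was -1.84 ± 0.23, that in NOD -1.78 ± 0.23 and that in BALB 0.04 ± 0.20 (adjusted p = 0.949).

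Cyp3a11 was the single P450 gene called for a KO effect that differed between the strains, against 0.66% of all genes (F test over the 3 strain differences, adjusted p = 0.0059, and 0.0179 with BALB and NOD mice paired). For the others a difference was not called, which does not show that there was none. Leaving out B6 WT 1 raised the number of such members from 1 to 3, and leaving out BALB WT 1 raised it to 2. Cyp3a44, a female-biased liver gene and its neighbour, fell by 0.84 (SE 0.12, adjusted p = 5.75e-05). It was called in B6 (-1.20) and NOD (-0.92) and not in BALB (-0.39). The B6 difference shrank to -0.68 without the 3 B6 arrays, which leaves 1 B6 KO mouse. Cyp3a16 fell by 0.24 (adjusted p = 0.0175) at the lowest level of all members, and its call was lost without the 3 B6 arrays (-0.27, adjusted p = 0.0584) and with the run of sample codes as a block (0.0593). Cyp3a13 (-0.10) did not pass.

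Family 4, the fatty acid and eicosanoid hydroxylases, had 5 of 13 genes lower. Cyp4f14, an enzyme that inactivates leukotrienes, was the 1 of 7 Cyp4f genes that passed, and the others read from -0.18 to 0.16, the value of Cyp4f13. With BALB and NOD mice paired, Cyp4f15 (-0.18) was called lower as well (adjusted p = 0.0336). In B6 mice Cyp4f14 (probe set 1419559_at) read 6.50, 6.91 and 6.25 in WT and 4.81, 4.37 and 4.84 in KO. In BALB mice Cyp4f14 read 5.87, 6.35, 6.31 and 5.43 in WT and 4.73, 4.53, 4.57 and 4.79 in KO. In NOD mice Cyp4f14 read 5.50, 5.48 and 5.70 in WT and 4.68, 4.71 and 4.51 in KO. The WT means stepped down from B6 to NOD while the KO mice of all 3 strains read between 4.37 and 4.84. The averaged fall was -1.38 ± 0.11 (SE), or 2.60-fold (adjusted p = 7.03e-08), with -1.88, -1.34 and -0.92 in B6, BALB and NOD, whose difference did not pass its test (adjusted p = 0.583).

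Cyp4a12a, a kidney enzyme that makes a vasoactive arachidonic acid product, fell by 1.04 (SE 0.15, adjusted p = 6.11e-05), or 2.05-fold. Cyp4a14, a fatty acid hydroxylase known to respond to the receptor Ppara, fell by 0.80 (SE 0.12, adjusted p = 0.000101). Cyp4b1 of the lung fell by 0.68 (SE 0.10, adjusted p = 8.53e-05). Cyp4v3 fell by 0.55 (SE 0.16, adjusted p = 0.0208), where B6 read -1.29, BALB 0.19 and NOD -0.54, and its strain difference did not pass (adjusted p = 0.302). A dimmer probe set of Cyp4v3 read -0.28 and did not pass. The Cyp4v3 call was lost without the 3 B6 arrays (-0.44, adjusted p = 0.0509), with the dendritic cell and macrophage covariate (0.0595), with the strains fitted as an additive term (0.106), or without B6 WT 3 (0.0511) or B6 KO 2 (0.0501). The mean log2 of the 10 measured dendritic cell and macrophage markers ranged from 7.39 to 8.92 in WT and from 7.20 to 8.51 in KO mice, 1 of the 10 was lower and 1 higher in KO, and their part in other results was not tested beyond that covariate.

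Genes that work on the same lipids were counted beside them. Of 10 measured eicosanoid genes 3 were lower, against 16.6% of all genes. Among them were Alox12b, a lipoxygenase of the skin barrier (-1.65 ± 0.13, SE), and Alox15 (-0.79 ± 0.08). The cyclooxygenase gene Ptgs2 was the 1 that was higher (0.69 ± 0.19), against 9.7% of all genes.

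**Figure D2:**
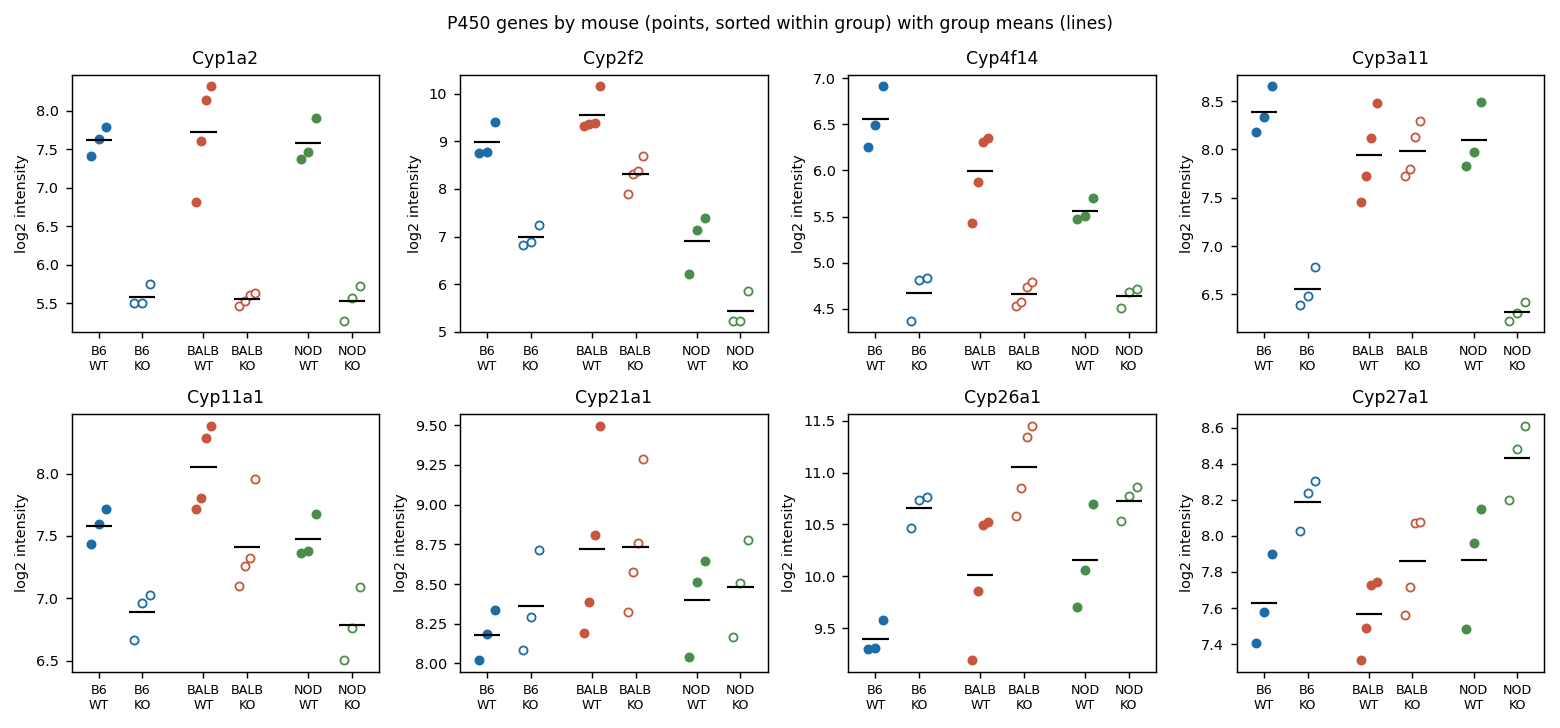
Log2 intensity (vertical axis) of 8 P450 genes in every mouse, with filled points for WT and open points for KO, sorted within each group, and lines for group means. Cyp1a2, Cyp2f2 and Cyp4f14 separate by genotype in every strain, Cyp3a11 does so in B6 and NOD but overlaps in BALB, and Cyp21a1 overlaps in every strain.

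The steroid hormone enzymes are of interest because their human counterparts are adrenal and gonadal autoantigens. Cyp11a1, the mitochondrial enzyme that cleaves the cholesterol side chain and opens all steroid synthesis, was lower in KO mice. In B6 mice Cyp11a1 read 7.60, 7.43 and 7.72 in WT and 6.67, 7.03 and 6.97 in KO. In BALB mice Cyp11a1 read 7.72, 8.29, 7.81 and 8.39 in WT and 7.10, 7.32, 7.26 and 7.96 in KO. In NOD mice Cyp11a1 read 7.68, 7.38 and 7.37 in WT and 7.09, 6.51 and 6.77 in KO. All KO mice except BALB KO 4 lay below the WT mice of their strain. The averaged fall was -0.68 ± 0.12 (SE), or 1.60-fold (adjusted p = 0.000446), with nearly equal values of -0.70, -0.64 and -0.69 in B6, BALB and NOD. Alone, only BALB passed (adjusted p = 0.0463 against 0.0538 and 0.0947), and with BALB and NOD mice paired all 3 strains did (0.00273 in B6 and 0.00492 in NOD). B6 mice were not paired in that fit and their difference did not change. The B6 SE went from 0.22 to 0.13 through the spread shared by all strains, so this B6 call adds no evidence from B6 mice. Without the 3 B6 arrays, which leaves 1 B6 KO mouse, the unpaired B6 difference was -0.99. The probe sets of Cyp11a1 disagreed in size: of the dimmer ones, 1 fell by 1.57 (adjusted p = 6.20e-09) and 1 read 0.11 and did not pass.

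Cyp11b1, which completes corticosterone, fell by 0.42 (SE 0.07, adjusted p = 0.000415) with all 10 KO mice below the WT mice of their strain. Its neighbour Cyp11b2, the aldosterone synthase, read 0.09 and did not pass. Cyp21a1, whose human counterpart is the major adrenal autoantigen, differed by 0.09 ± 0.16 (SE, adjusted p = 0.708). In B6 mice Cyp21a1 read 8.34, 8.18 and 8.02 in WT and 8.71, 8.30 and 8.08 in KO. In BALB mice Cyp21a1 read 9.50, 8.19, 8.38 and 8.81 in WT and 9.29, 8.32, 8.58 and 8.76 in KO. In NOD mice Cyp21a1 read 8.04, 8.51 and 8.65 in WT and 8.17, 8.51 and 8.78 in KO. Genotypes overlapped in every strain, and same-numbered BALB and NOD mice read close to each other. Cyp17a1, the androgen-forming enzyme, differed by -0.09 ± 0.13 (adjusted p = 0.652). Thus 2 of 5 measured steroid synthesis genes were lower, against 16.6% of all genes. So were 2 of the 5 genes listed for autoantigens in AIRE deficiency, Cyp1a2 and Cyp11a1, while Cyp21a1, Cyp17a1 and Cyp2a12 did not pass. Cyp2a12 was listed as the only Cyp2a gene with a single-symbol probe set. The probe set shared by Cyp2a5 and Cyp2a4, outside the rule, read -0.06 and did not pass either. The aromatase gene Cyp19a1 was not analysed here.

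The partners of steroid synthesis were lower in 5 of 9 measured genes and higher in none, against 16.6% and 9.7% of all genes. Hsd3b1, which acts on the products of Cyp11a1 and Cyp17a1, fell by 0.72 (SE 0.09, adjusted p = 1.11e-05), and Star, which brings cholesterol to Cyp11a1, by 0.24 (SE 0.05, adjusted p = 0.00342). The adrenal and gonadal regulator Nr5a1 read 0.07 and did not pass.

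Of the 7 bile acid and sterol genes 1 was lower and 1 higher, near the 16.6% and 9.7% of all genes called. Cyp27a1, the mitochondrial sterol hydroxylase, was higher by 0.47 ± 0.10 (SE), or 1.39-fold (adjusted p = 0.00311), and 8 of 10 KO mice exceeded each WT mouse of the same strain. No strain passed alone (0.56, 0.29 and 0.57 in B6, BALB and NOD), while B6 and NOD did with BALB and NOD mice paired (adjusted p = 0.0104 and 0.0163). B6 mice were not paired in that fit, and the B6 SE went from 0.19 to 0.13 through the spread shared by all strains. A far dimmer probe set of Cyp27a1 (mean 3.13) read 0.08 and did not pass. For Cyp51, the lanosterol demethylase of cholesterol synthesis, dimmer probe sets read -0.25 and 0.08 and did not pass. The probe set used read -0.37 ± 0.13 at an adjusted p of 0.049. That call was lost in 14 of 20 fits that left out 1 mouse, all except those without B6 WT 2, B6 KO 1, BALB WT 3, BALB KO 4, NOD WT 3 or NOD KO 1, and without the 3 B6 arrays it read -0.33 with an adjusted p of 0.184. Cyp7a1, the rate-limiting enzyme of bile acid synthesis (0.03), Cyp8b1 (-0.05), Cyp46a1, the cholesterol hydroxylase of neurons (-0.11), Cyp39a1 (-0.28) and the oxysterol hydroxylase gene Cyp7b1 (0.28) did not pass. With BALB and NOD mice paired, Cyp39a1 was called lower (adjusted p = 0.0231) and Cyp7b1 higher (0.00952). In cholesterol synthesis 1 of 15 measured partners was lower, Hmgcs1 (-0.48 ± 0.06, SE), and none was higher, against 16.6% and 9.7% of all genes.

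Vitamin D is activated by Cyp2r1 and Cyp27b1 and broken down by Cyp24a1. Cyp27b1, which makes the active hormone, fell by 0.59 (SE 0.11, adjusted p = 0.000513), with the call in NOD alone (-0.80, adjusted p = 0.019). Cyp2r1 (0.06) did not pass at a level near the bottom of the scale. Cyp24a1 depended on the probe set. The brighter of its probe sets read 0.20 (adjusted p = 0.0582, and 0.0307 with BALB and NOD mice paired), while the dimmer one fell by 1.21 on the log2 scale (adjusted p = 1.32e-06), so no direction is given for the gene. Vdr, the vitamin D receptor, was higher by 0.43 ± 0.11 (SE, adjusted p = 0.0075).

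Cyp26a1, which degrades retinoic acid and is itself known to be induced by it, was the P450 gene with the highest level and the largest rise. In B6 mice Cyp26a1 (probe set 1419430_at) read 9.30, 9.58 and 9.31 in WT and 10.47, 10.76 and 10.73 in KO. In BALB mice Cyp26a1 read 10.50, 10.52, 9.85 and 9.19 in WT and 11.34, 11.45, 10.85 and 10.58 in KO. In NOD mice Cyp26a1 read 10.70, 10.06 and 9.70 in WT and 10.86, 10.77 and 10.54 in KO. Only NOD KO 3 failed to exceed the WT mice of its strain, since NOD WT 1 read higher. The averaged rise was 0.96 ± 0.17 (SE), or 1.94-fold (adjusted p = 0.000461). B6 rose by 1.26 ± 0.31, or by 1.16 without the 3 B6 arrays, which leaves 1 B6 KO mouse. BALB rose by 1.04 ± 0.27, while NOD read 0.57 ± 0.31 and did not pass (adjusted p = 0.470, and 0.0338 with BALB and NOD mice paired). The difference between strains did not pass either (adjusted p = 1 after rounding). The pattern of 9 or 10 KO mice above the WT mice of their strain was met by 1 member, Cyp26a1, against 3.61% of all genes, and all 10 lay above in no member (1.62%). Cyp26b1, its relative, read -0.15 and did not pass, and Cyp26c1 was not analysed here.

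Genes that make, store and carry retinoids were counted beside it. Of 10 measured partners 5 were lower and 2 higher, against 16.6% and 9.7% of all genes. Aldh1a1 and Aldh1a2, which form retinoic acid, differed by -2.72 ± 0.14 (SE, adjusted p = 1.29e-10) and -1.76 ± 0.12 (adjusted p = 5.74e-09). Crabp1, a retinoic acid carrier, fell by 2.95 (SE 0.19, adjusted p = 2.41e-09). For all 3 genes every KO mouse lay below the WT mice of its strain. Lrat, which esterifies retinol for storage, was higher by 1.39 ± 0.15 (SE, adjusted p = 2.40e-06) with all 10 KO mice above the WT mice of their strain, and its other probe set read 1.16 (adjusted p = 0.0268). Rdh10, which makes retinal, was higher by 0.47 ± 0.14.

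**Figure D3:**
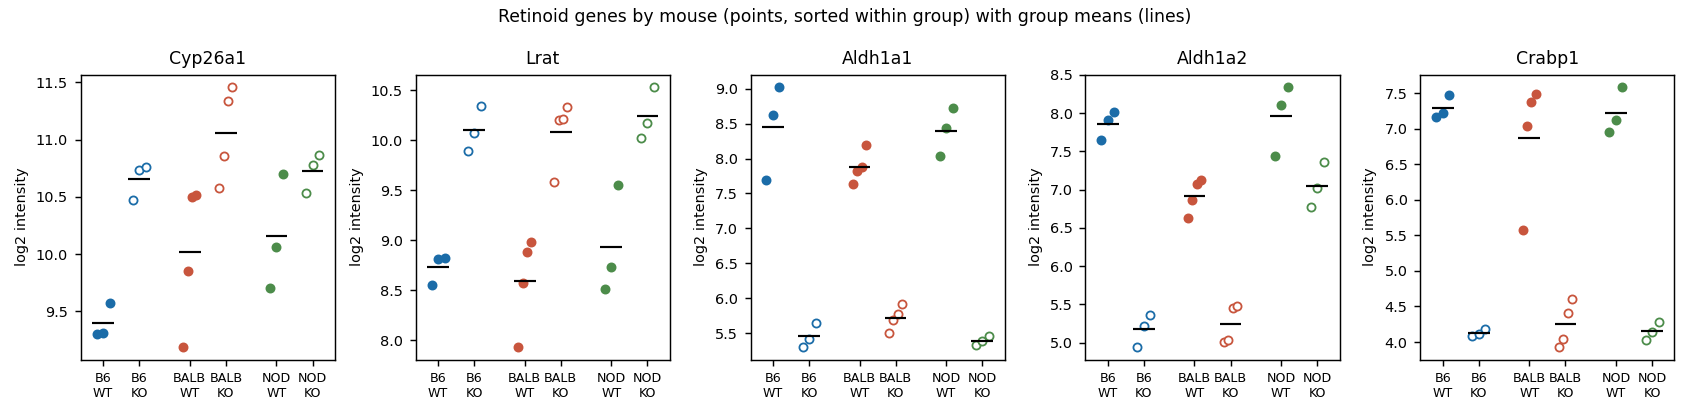
Log2 intensity (vertical axis) of Cyp26a1 and 4 retinoid partners in every mouse, with filled points for WT, open points for KO and lines for group means. KO mice lie higher for Cyp26a1 in 9 of 10 cases and for Lrat in all 10, and lower for Aldh1a1, Aldh1a2 and Crabp1 in all 10.

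Of 8 listed electron transfer genes 6 were measured and none was called, with differences from -0.23 for Cyb5r3 (adjusted p = 0.0529) to 0.22 for Pgrmc2. The reductase gene Por and the ferredoxin reductase gene Fdxr were not analysed here. Among 17 transcriptional regulators 3 were lower and 2 higher, near the 16.6% and 9.7% of all genes called. Besides Ahrr the lower ones were the bile acid receptor Nr1h4 (-0.54 ± 0.09, SE) and the liver regulator Hnf4a (-0.44 ± 0.08), and besides Vdr the higher one was Nr5a2 (0.74 ± 0.11). The xenobiotic receptors Nr1i2 (0.28) and Nr1i3 (-0.06) did not pass. Of 11 measured genes listed as hepatocyte markers 7 were lower and 1 was higher, against 16.6% and 9.7% of all genes. The mean of this list ranged from 7.24 to 8.21 in WT and from 6.32 to 7.33 in KO mice.

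P450 genes lie in clusters, and the RefSeq gene order gave 22 pairs of members next to each other. Both genes fell in 4 pairs, 1 of them in 11 pairs and neither in 7. Of all members 37% were called lower, and whether neighbours fell together more often than that share gives was not tested. The pairs that fell together were Cyp1a2 with Cyp1a1, Cyp2d10 with Cyp2d9, Cyp3a44 with Cyp3a11, and Cyp2s1 with Cyp2b10. Elsewhere a gene fell next to 1 that did not pass: Cyp2f2 (-1.57) beside Cyp2a12 (0.09), Cyp4f14 (-1.38) beside Cyp4f13 (0.16), and Cyp2d26 (-0.77) beside Cyp2d40 (0.02).

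Each strain was then read alone. In B6, 19 members were lower (9.27% of all genes) and 1 higher (3.19%). Without the 3 B6 arrays that stood apart, which leaves 2 WT mice and 1 KO mouse that is assumed to vary like the others, 9 of these 20 calls were made, those of Cyp1a2, Cyp2d10, Cyp2d26, Cyp2e1, Cyp2f2, Cyp3a11, Cyp3a25, Cyp4a12a and Cyp4f14. The B6 difference was then -2.03 for Cyp1a2, -2.19 for Cyp2f2, -1.56 for Cyp4f14 and -1.47 for Cyp3a11, whose strain difference still passed (adjusted p = 0.0396). In BALB, 12 members were lower (7.48%) and 2 higher (2.89%), Cyp26a1 and Cyp2j13, and leaving out BALB KO 1 or BALB KO 2 gave 9 calls in all. In NOD, 10 were lower (4.7%) and none higher (1.88%). The NOD count fell to 3 without NOD WT 3 and to 6 without NOD KO 1 or NOD KO 3. Member medians were -0.31 in B6 and -0.07 in both BALB and NOD, against 0.013, -0.0011 and 0.0046 for all genes. Counts of calls depend on the spread and the number of mice and do not show that strains differ.

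Cyp1a2, Cyp2f2, Cyp4f14 and Cyp2d10 were called lower in all 3 strains, 4 members or 5.48% against 3.24% of all genes. A further 10 were called lower in 2 strains and 9 in 1 strain, and the other 50 in none. All B6 KO mice lay below all B6 WT mice for 34 members (17.5% of all genes), which held for 10 in BALB (9.31%) and 25 in NOD (15.4%). Without the 3 B6 arrays the B6 count was 46 (39.6%), with fewer mice to separate. The averaged count of higher members, 2, became 5 with BALB and NOD mice paired, 4 without BALB WT 4, and 5 without BALB KO 2 or NOD WT 1. The members added in the paired fit were Cyp24a1, Cyp2d13 and Cyp7b1.

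**Figure D4:**
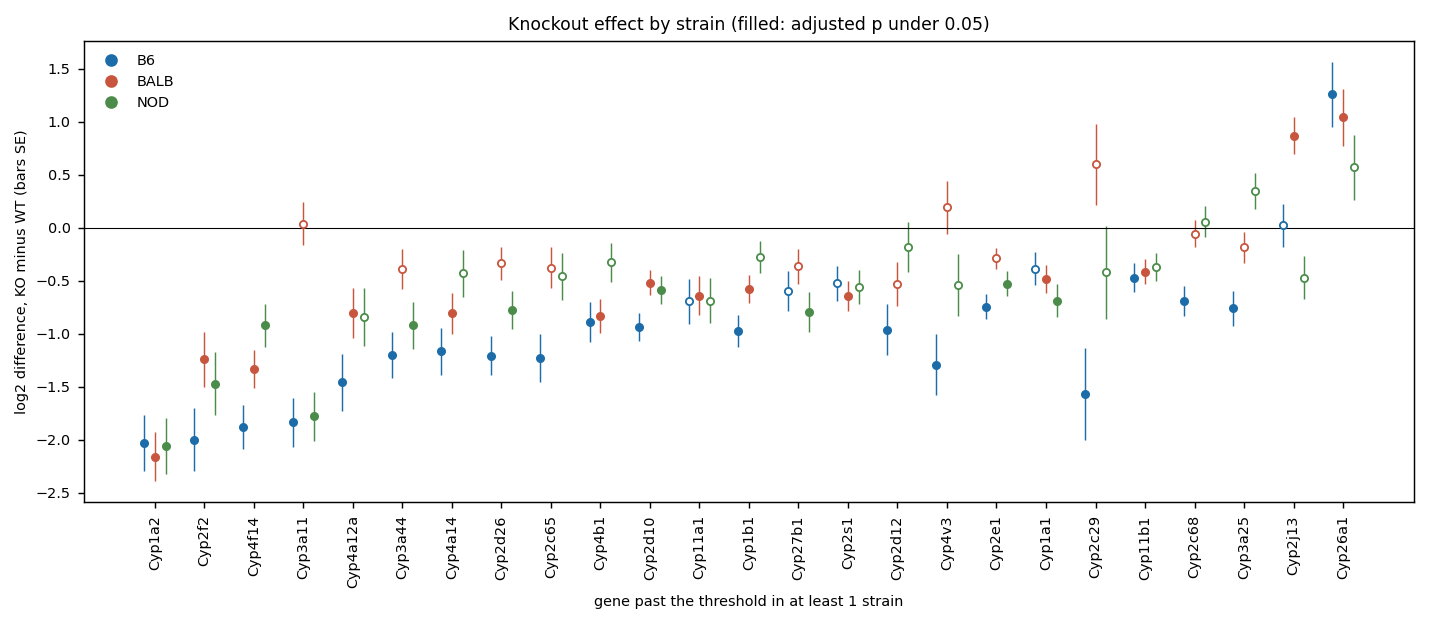
KO minus WT log2 difference (vertical axis, bars SE from limma) in B6, BALB and NOD for the members that passed the threshold in at least 1 strain, with filled points where the adjusted p was under 0.05. Cyp1a2 lies between -2.16 and -2.03 in all strains, Cyp3a11 at -1.84 in B6, -1.78 in NOD and 0.04 in BALB, and Cyp2j13 passes in BALB alone, upwards.

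Levels of some members also differed between the strains with Aire intact. Among WT mice 13 members (17.8%) passed the F test over the 3 strains, near the 14.2% of all genes. Without the 3 B6 arrays Cyp17a1, Cyp2b19, Cyp2j13 and Cyp4f14 did not pass, and Cyp4v3 did. In NOD 12 members were lower than in B6 (6.3% of all genes) and none higher (2.4%). In BALB 5 members (6.85%) were lower than in B6, near the 4.58% of all genes, and none higher (2.46%). Between NOD and BALB 5 members (6.85%) were lower in NOD, near the 5.25% of all genes, and none higher (3.03%). Without the 3 B6 arrays the lower counts were 11 for NOD against B6, 3 for BALB against B6 and 7 for NOD against BALB, and none was higher.

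The widest WT range was that of Cyp2f2, where B6 had a mean of 8.98, BALB 9.56 and NOD 6.91, and the highest NOD mouse (7.39) lay below the lowest B6 mouse (8.74). NOD differed from B6 (adjusted p = 0.000225) and from BALB (8.99e-06), and B6 and BALB did not differ beyond their spread (0.264). For Cyp3a13, an intestinal drug oxidase, B6 mice read 9.22, 9.35 and 9.53, BALB mice 7.84, 7.51, 8.07 and 8.77, and NOD mice 7.71, 7.54 and 7.50. B6 lay above both other strains, whose own difference did not pass (adjusted p = 0.427). For Cyp2c37 B6 mice read 5.72, 5.69 and 6.33, BALB mice 4.38, 4.17, 4.24 and 4.57, and NOD mice 4.65, 4.54 and 4.52, again with B6 above the others (adjusted p = 1.57e-06 against BALB and 2.24e-05 against NOD). Its KO effect was 0.02 and did not pass, so Cyp2c37 varied with strain in these mice while no effect of genotype was detected.

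NOD had the lowest WT mean for a further group, though not every pairwise difference passed. The WT means of Cyp2g1 in B6, BALB and NOD were 10.14, 10.65 and 8.96, and those of Cyp4f16, a relative of Cyp4f14, were 8.84, 8.44 and 7.48. Cyp2b19 had means of 8.55, 9.42 and 7.80, with BALB mice spread from 8.47 to 10.52. NOD was lower than BALB (limma, adjusted p = 0.0184), and its difference from B6 did not pass (0.361). Cyp2j9, Cyp2j6 and Cyp4f14 also had their lowest WT mean in NOD. Cyp17a1 (7.73, 7.03 and 6.87) was higher in B6 than in NOD (limma, adjusted p = 0.0297), while NOD and BALB did not differ beyond their spread (0.785). Probes were designed on 1 reference sequence, and whether strain variants under a probe lower its signal was not tested.

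**Figure D5:**
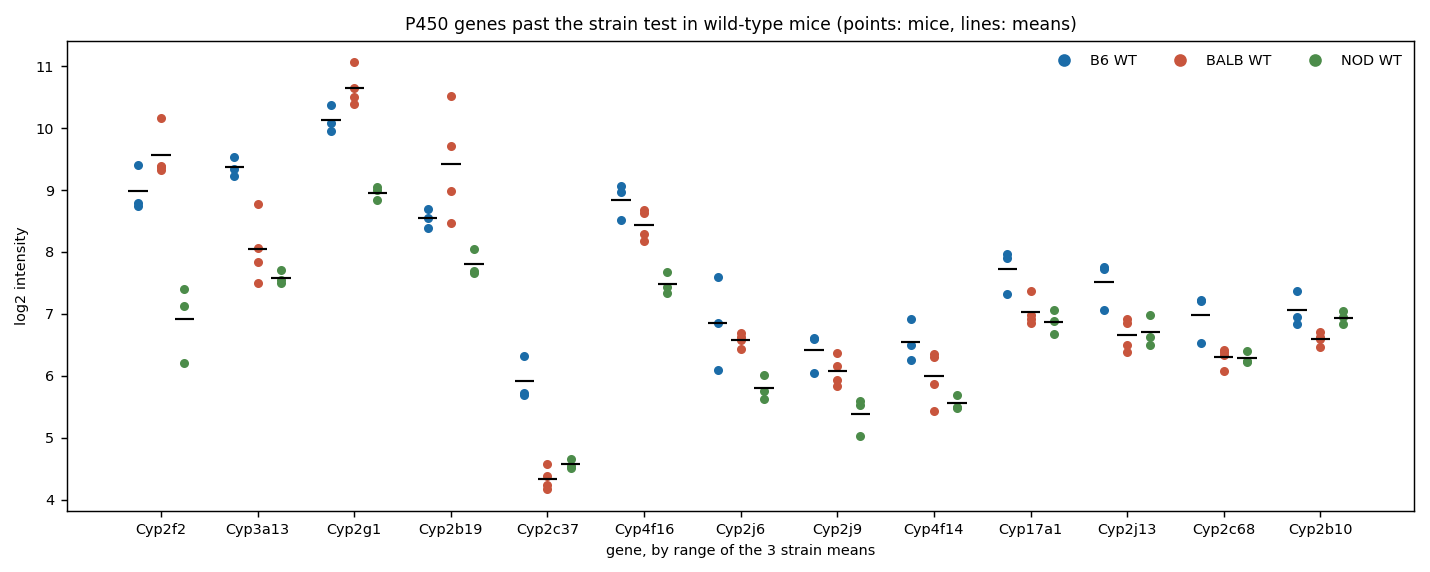
Log2 intensity (vertical axis) in the WT mice of each strain for the 13 P450 genes past the strain test, ordered by the range of the 3 means (lines), with 1 point per mouse. Cyp2f2 is lowest in NOD, Cyp3a13 and Cyp2c37 are highest in B6, and no member was called higher in NOD than in B6 or BALB.

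Of 25 further probe sets of the members, 10 belonged to a gene whose probe set used had passed, and 4 of these passed as well, all with the same sign. Across all 25 the sign was opposite in 8, and 1 passed where the probe set used did not, that of Cyp24a1. Values of a gene with several probe sets can therefore depend on the choice.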

How the data were processed

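Per the labels' protocols, RNA was isolated with Trizol, amplified in 2 rounds and labelled with biotin, steps that can favour 3' ends. The deposited values are 1 linear intensity per probe set and array, made by the authors with RMA, per the submitters' processing notes, with version and settings not given in the sources used here. This method combines the probes of a set and usually quantile-normalizes arrays, which can even out array-wide shifts. Background left in dim probe sets understates their folds.

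The members and lists were chosen with earlier results of these data known. Groups were taken from the sample titles. Of 45101 probe sets, 64 controls were left out, and log2 intensities of 45037 were fitted with limma 3.58.1 in R 4.3.3 (6 group means, 20 arrays, 14 residual degrees of freedom), with Benjamini-Hochberg adjustment over all of them and a threshold of 0.05. The annotation table gave 1 symbol for 34945, several for 932 and none for 9160. All member symbols matched RefSeq (GRCm38.p6). The code was tested on simulated data.

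Named members were those of the steroid, sterol, vitamin D, retinoic acid and autoantigen groups and family 1, the 12 largest falls and 8 largest rises past the threshold with 1 sign in 3 strains, up to 10 past each strain test, the 6 highest and 4 lowest levels, the extremes of subfamilies of 4 or more genes, and partners changed at least 2-fold. Other members and partners, among them Cyp2c23, Cyp2e1, Cyp2s1, Cyp2b10, Cyp2c68, Cyp2j13, Cyp3a25, Cyp4f15, Ahr, Ahrr, Hsd3b1, Star and Vdr, were named after their values were seen.

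Same-numbered mice were taken as pairs where every pair's deviations from the group means correlated above 0.1, which held for 4 BALB pairs (0.46 to 0.66) and 3 NOD pairs (0.31 to 0.67) but not in B6, where 1 pair read -0.13. In BALB, mice of unlike numbers also reached 0.26. Alternatives changed the scaling, left out dim probe sets, or used 32 added before the logarithm, other variance models, array weights, arrays fitted, probe set choice, blocks, covariates, fold limits and leaving out mice.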

Additional observations from a re-analysis of the deposited data

Results flagged for a closer look

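Among 104 groups of 4 BALB mice tested for a stray mouse in the named members, 3 had 1 mouse apart from the others, where chance gives about 1 in 20. In BALB KO, mouse 2 read 8.50 for Cyp20a1 while the others read 8.78 to 8.80. In BALB WT, mouse 4 read 6.84 for Cyp2a12 against 6.50 to 6.55. The same mouse read 10.16 for Cyp2f2 against 9.33 to 9.38.

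The KO effect on Cyp3a11 differed between strains (limma F test, adjusted p = 0.0059), with falls in B6 and NOD and overlap of the genotypes in BALB.

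For Cyp2j13 every BALB KO mouse lay above the BALB WT mice and every NOD KO mouse below the NOD WT mice, and the strain effects spanned 1.34 log2 units. The KO effect was 0.87 ± 0.17 (SE) in BALB and -0.47 ± 0.20 in NOD, and the F test over strains did not pass (adjusted p = 0.0614).

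For Cyp3a25, a steroid and drug oxidase of mouse liver, all NOD KO mice lay above and all B6 KO mice below the WT mice of their strain, with effects that spanned 1.11 log2 units. The effect was -0.76 ± 0.17 (SE) in B6 and 0.35 ± 0.17 in NOD, and the F test did not pass (adjusted p = 0.115).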

How the results depend on the processing

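Over 52 named members and 1791 values under alternatives, 1712 kept their direction and side of the threshold, 41 lost the call, 37 gained it and 1 reversed: Cyp24a1, whose difference became -0.50 when all its probe sets were averaged. Of 24 named members past the threshold, 20 stayed past it in every alternative run, and Cyp51, Cyp2b19, Cyp4v3 and Cyp3a16 did not. For the averaged effect, 27 members were lower and 2 higher. A filter on dim probe sets, which left 31 members, gave 13 lower, and a limit of 2-fold gave 5 lower and 0 higher. Arrays centred on their medians gave 4 higher, the Gapdh covariate 4 and array weights 7. In B6, with 20 calls, the filter gave 11, array weights 35, leaving out 3 arrays 9 and the 2-fold limit 12. In BALB, with 14, the filter gave 9, its own arrays alone 6 and the 2-fold limit 4. In NOD, with 10, the filter gave 5, array weights 23, the code run as a block, which leaves out 1 B6 mouse, 16, and the 2-fold limit 3. The strain difference of the effect, with 1 member, gave 2 after quantile normalization, 2 with probe sets averaged, 2 with the Gapdh covariate, 4 with the code run as a block and 9 with array weights. The strain difference in WT mice, with 13, gave 8 with the filter, 7 with WT arrays alone and 8 with the 2-fold limit. Apart from the filter and the 2-fold limit, which test or admit fewer members by construction, the cause was not tested.

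The replicate block in BALB and NOD only gave 29 lower and 5 higher members and changed no count of calls beyond 1.5 times apart from the higher ones. A replicate block in all strains, where the B6 numbers share only a number, gave 6 higher members, 34 calls in B6, 23 in BALB, 21 in NOD and 7 for the strain difference of the effect. In B6 not every mouse correlated best with its own number.

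Leaving out each mouse in turn gave 23 to 29 lower and 2 to 5 higher members for the averaged effect, 16 to 25 calls in B6, 9 to 14 in BALB, 3 to 12 in NOD, 9 to 14 for the strain difference in WT mice and 1 to 3 for that of the effect. The median averaged difference of all probe sets was 0.06, and 0.06 and 0.07 under quantile normalization and centring, which bears on calls of small size. Precision is limited by the 3 or 4 mice of each group and by signal near the bottom of the scale, where 2 members lay below the value that marks the lowest 5% of all intensities.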

Other observations

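Probe sets annotated to more than 1 gene lie outside the rule, and 4 of them carried a P450 symbol. The probe set shared by Cyp3a41a and Cyp3a41b, a pair of near-identical liver genes, had the largest difference of any P450 probe set examined, -3.80 ± 0.23 (SE) averaged over the strains (limma, adjusted p = 9.75e-10). Its mean log2 intensity in WT and KO mice was 8.21 and 3.86 for B6, 7.41 and 4.90 for BALB, and 7.64 and 3.11 for NOD. All 10 KO mice lay below the WT mice of their strain. The 2 genes cannot be told apart by this probe set. That of Cyp4a31 and Cyp4a10, fatty acid hydroxylases, read -0.54 ± 0.13 (adjusted p = 0.00668), while the single-symbol probe set of Cyp4a31 read 0.08 and did not pass. The probe set of Cyp2a5 and Cyp2a4, which hydroxylate coumarin and steroids, was bright (mean 9.66) and read -0.06 ± 0.25 (adjusted p = 0.886). That of Cyp4f37 and Cyp4f16 read 0.38 ± 0.20 and did not pass (adjusted p = 0.186).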
